A study of Mus musculus with 28 samples.

Results

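Iron handling was followed through 10 genes in macrophages that were grown in culture from the bone marrow of mice. The genes were chosen by name: the transferrin receptor Tfrc, the endosomal ferrireductase Steap3, the metal transporters Slc11a2 (DMT1) and Slc11a1 (NRAMP1), the ferritin subunits Fth1 and Ftl1, the iron exporter Slc40a1 (ferroportin), the ferroxidase Cp (ceruloplasmin), the haem oxygenase Hmox1 and the siderophore-binding protein Lcn2. They are 10 of the 55487 gene IDs measured in each of 28 libraries, and all 10 passed the filter of at least 1 TPM in at least 4 libraries. TPM is a transcript level corrected for transcript length and scaled to a fixed total per library.

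The series asked how the uptake of dying T cells alters macrophages under different cytokines. All cells were wild-type, every culture lasted 48 h, and each of the 7 groups held 4 libraries. M0 macrophages received no polarizing cytokine. Under IFN-γ at 50 ng/mL and under IL-10 at 50 ng/mL, macrophages were sorted into those that had engulfed apoptotic regulatory T cells (Treg-phagocytic), those that had engulfed conventional CD4 T cells killed in the same way (Tconv-phagocytic) and those that had engulfed neither (non-phagocytic). The T cells had been driven into apoptosis with ATP/NAD+ and stained with a CD4 antibody carrying BV421 or Ax647. The series' design text describes co-culture without cytokine as well, but the M0 labels state neither uptake nor T cells, so in comparisons with M0 the cytokine cannot be told apart from co-culture and sorting. The dye in the titles differs from the dye in the library names for all 8 Treg-phagocytic libraries. Libraries are named here by their titles. The labels do not state that replicates are separate cultures, so p-values measure the spread between these libraries, which may be technical.

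Macrophages take up transferrin-bound iron through the transferrin receptor, and haem iron through engulfed cells, whose haem is opened by haem oxygenase. Iron leaves the endosome through divalent metal transporters, is stored inside ferritin shells built of heavy and light subunits, or leaves the cell through ferroportin, the only known iron exporter. When iron is scarce, iron regulatory proteins bind short RNA hairpins, the iron-responsive elements. Binding in a 5′ UTR blocks translation of ferritin, and binding in the 3′ UTR protects the Tfrc mRNA from decay, so RNA levels of ferritin do not report its protein.

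Elements of Fth1, Ftl1 and Tfrc that match a strict pattern are shown to illustrate both positions of this hairpin. An element that departs from the pattern would be missed. Slc40a1 and some Slc11a2 transcripts are known to carry elements as well, in the 5′ and the 3′ UTR respectively, and any matches in them are not listed here. Each element shown is 27 bases, read from the GENCODE vM21 transcripts (GRCm38, mm10), with the 6-base loop in capitals. The search asked for an unpaired C, 5 bases, the loop CAGTGN and 5 bases that all pair with the first 5, G with T allowed, on the transcript strand. The first 2 lie in 5′ UTR exons of Fth1 within the gene (chr19:9982733-9982759, plus strand) and Ftl1 (chr7:45459780-45459806, minus strand), and the other 4 lie in the 3′ UTR of Tfrc on the plus strand (chr16:32631220-32631246, chr16:32631599-32631625, chr16:32631664-32631690 and chr16:32631711-32631737).
Fth1 5′ UTR: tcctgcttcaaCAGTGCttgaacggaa
Ftl1 5′ UTR: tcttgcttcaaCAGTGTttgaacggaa
Tfrc 3′ UTR at 32631220: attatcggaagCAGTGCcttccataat
Tfrc 3′ UTR at 32631599: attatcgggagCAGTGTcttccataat
Tfrc 3′ UTR at 32631664: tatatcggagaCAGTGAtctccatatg
Tfrc 3′ UTR at 32631711: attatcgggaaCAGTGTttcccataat
Over the longest transcript of each gene, the same pattern occurs in the 5′ UTR of 0.0988% of 20233 genes and in the 3′ UTR of 0.565% of 20898 genes. A match is a description of the sequence and not a measurement of binding.

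The libraries differed in depth and spread along the cytokines. The files hold no counts, and the relative depth, read from the size of 1 read in low values, was 11.3% to 24.2% of the deepest library under IFN-γ, 48.9% to 92.1% under IL-10 and 68.5% to 100% in M0. The median gene's replicate SD on the log2 scale lay at 0.23 to 0.27 under IFN-γ, against 0.10 to 0.12 elsewhere. The summed level of 10 macrophage markers was 16824 to 21632 TPM in all libraries, and no marker was at 0 throughout a group. Markers of 16 T cell genes summed to 498 to 865 TPM in IFN-γ non-phagocytic libraries. They summed to 598 to 767 in IFN-γ Tconv-phagocytic and 574 to 928 in IFN-γ Treg-phagocytic libraries, so the IFN-γ groups overlapped. The sums were 91.4 to 103 in IL-10 non-phagocytic, 120 to 165 in IL-10 Tconv-phagocytic and 191 to 226 in IL-10 Treg-phagocytic libraries. M0 libraries held 56.8 to 149. The 10 stromal markers summed to at most 11.8 TPM under IFN-γ and to 89.4 to 93.7, 159 to 170 and 30 to 33.4 in the same 3 IL-10 groups, and to 125 to 144 in M0 libraries. The part of these sums in the changes against M0, between cytokines and with uptake was not tested. In bulk RNA, fewer cells of a type and less RNA per cell cannot be told apart.

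Changes are log2 fold changes of scaled TPM plus 1, with their SE, from limma fits across 13631 genes, and a gene was called at a Benjamini-Hochberg adjusted p under 0.05. Against M0, 6 of the 10 genes were called in IFN-γ non-phagocytic macrophages (1 higher, 5 lower), where 53.1% of all genes were called (26.4% higher, 26.7% lower), and 6 in IL-10 non-phagocytic macrophages (1 higher, 5 lower), where 26.6% were (13.8% higher, 12.9% lower). Between IFN-γ and IL-10, 7 genes were called in non-phagocytic cells (51.4% of all genes), 7 in Treg-phagocytic cells (38.3%) and 5 in Tconv-phagocytic cells (52.5%). For uptake under IL-10, 4 genes were called in Treg-phagocytic against non-phagocytic cells (11.4% of all genes), 2 in Tconv-phagocytic against non-phagocytic cells (6.14%) and 1 between the phagocytic groups (1.39%). Under IFN-γ the counts were 3 (8%), 0 (0.00734%, or 1 gene) and 2 (11.7%). The counts for IFN-γ against M0 and for the cytokines in Tconv-phagocytic cells lie near their backgrounds. So do those for IFN-γ Treg against Tconv uptake, for IFN-γ Tconv uptake against none and for higher genes in IL-10 against M0. Comparisons that use the same libraries are given side by side and are not independent.

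**Figure D1:**
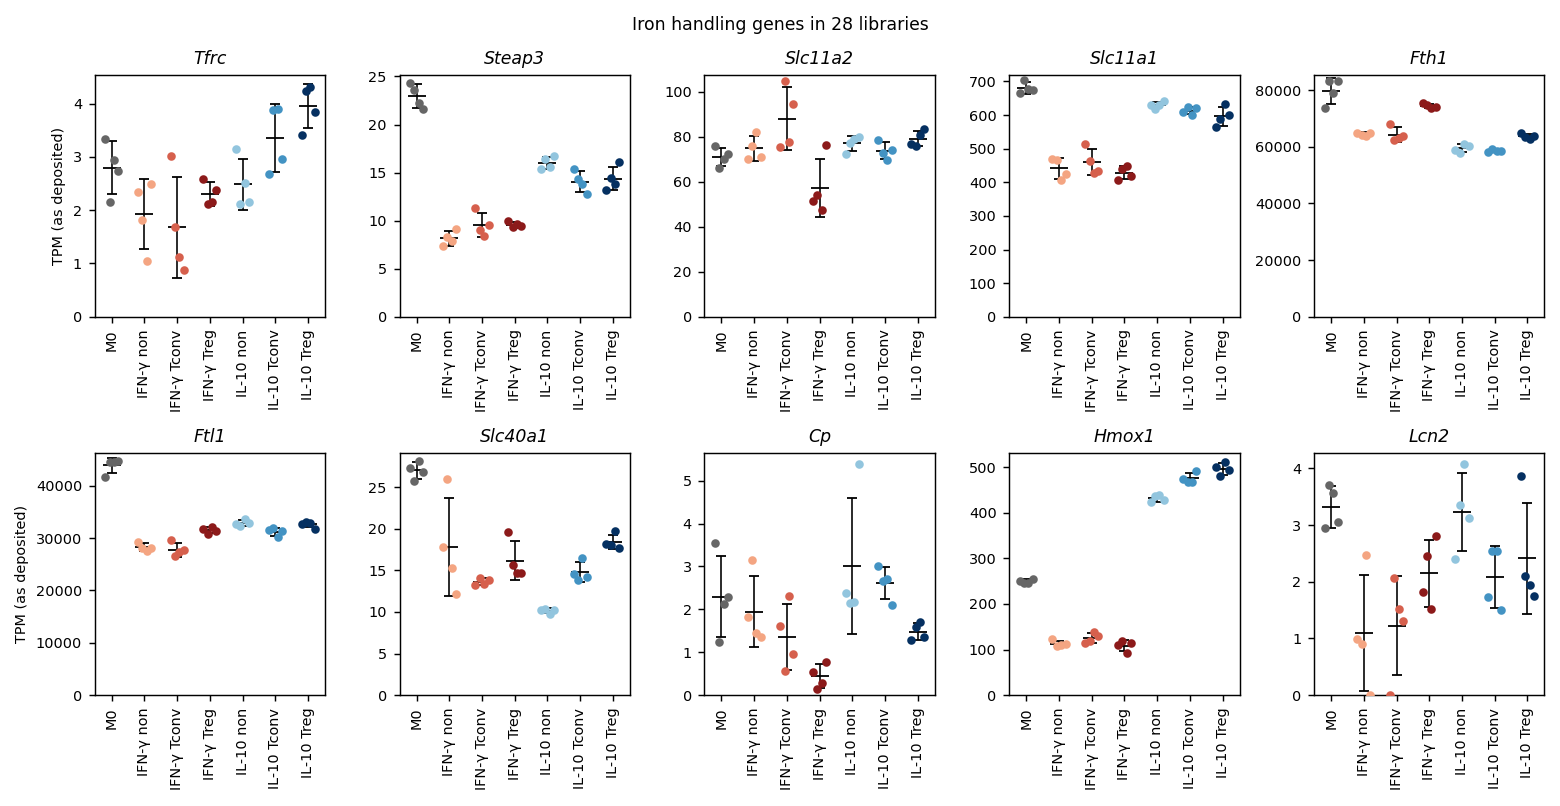
TPM as deposited (y axes, linear from 0) of the 10 iron handling genes in the 7 groups (x axes; non, non-phagocytic; Tconv and Treg, phagocytic for those cells). Points are the 4 libraries of a group, and bars are the mean ± SD. Hmox1 separates IL-10 from IFN-γ libraries with M0 between them, and Slc40a1 climbs from IL-10 non-phagocytic (9.73 to 10.4) to IL-10 Treg-phagocytic libraries (17.8 to 19.7).

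Export and haem degradation held the widest differences. Ferroportin fell under IL-10 and was higher again in IL-10 macrophages that had taken up T cells, more so after Treg than after Tconv uptake by value. Slc40a1 (ENSMUSG00000025993) measured 27.3, 25.7, 28.2 and 26.8 TPM in M0 libraries. It measured 10.3, 10.4, 9.73 and 10.3 in IL-10 non-phagocytic libraries. All 4 M0 libraries lay above all 4 IL-10 non-phagocytic libraries, and Slc40a1 fell by 1.33 (SE 0.04, adjusted p = 1.53e-07) on the log2 scale. In IL-10 Tconv-phagocytic libraries the levels were 14.6, 13.9, 16.5 and 14.2 TPM. In IL-10 Treg-phagocytic libraries they were 18.2, 18.1, 19.7 and 17.8. The 3 IL-10 groups did not overlap with each other. Against non-phagocytic cells Slc40a1 rose by 0.57 (SE 0.06, adjusted p = 0.00182) after Tconv uptake and by 0.87 (SE 0.05, adjusted p = 6.63e-05) after Treg uptake. The change between the phagocytic groups was 0.30 (SE 0.06, adjusted p = 0.076), which missed the threshold; without IL-10 Tconv Ax647-1 it was 0.35 (adjusted p = 0.037). The calls against non-phagocytic cells and against M0 were kept in every alternative run. The T cell marker sum has the same order over the 3 IL-10 groups as Slc40a1, and its part in the result was not tested.

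Under IFN-γ, Slc40a1 gave no such order. Non-phagocytic libraries measured 17.8, 26, 15.3 and 12.1 TPM, Tconv-phagocytic libraries 13.2, 14.1, 13.4 and 13.9, and Treg-phagocytic libraries 19.7, 15.6, 14.7 and 14.7. The non-phagocytic libraries spanned both other groups. The change was -0.05 (SE 0.21, adjusted p = 0.928) after Treg uptake and -0.36 (SE 0.20, adjusted p = 0.779) after Tconv uptake. The Treg effect differed between the cytokines by -0.92 (SE 0.23, adjusted p = 0.0159; 9.34% of all genes called in this difference), a call kept in all 30 alternatives. The Tconv effect differed by -0.93 (SE 0.22, adjusted p = 0.0395; 1.73% called), a call lost in 19 of 30 alternatives, among them the removal of any of 12 of the 16 libraries (adjusted p 0.0587 to 0.0907). Against M0, IFN-γ non-phagocytic cells gave -0.37 (SE 0.19, adjusted p = 0.138). That change was called without scaling (-0.63, adjusted p = 0.0198) and without IFN-γ non-phagocytic replicate 2, the highest of its group (-0.56, adjusted p = 0.00612). In non-phagocytic cells Slc40a1 was higher under IFN-γ than under IL-10 by 0.97 (SE 0.19, adjusted p = 0.00276), and all 4 IFN-γ libraries lay above all 4 IL-10 libraries. Among phagocytic cells the difference between cytokines was 0.04 (95% interval -0.18 to 0.27) for Treg and 0.03 (-0.15 to 0.22) for Tconv uptake.

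Hmox1 (ENSMUSG00000005413), which opens the haem ring and frees its iron, moved oppositely under the 2 cytokines. M0 libraries measured 251, 246, 246 and 255 TPM. IL-10 non-phagocytic libraries measured 425, 436, 440 and 428. IFN-γ non-phagocytic libraries measured 123, 109, 110 and 111. No library of 1 of these groups reached another group. Against M0, Hmox1 rose by 0.78 (SE 0.02, adjusted p = 1.28e-07) under IL-10 and fell by 0.86 (SE 0.05, adjusted p = 1.66e-06) under IFN-γ. IFN-γ against IL-10 gave -1.64 (SE 0.05) in non-phagocytic, -1.78 (SE 0.05) in Tconv-phagocytic and -1.95 (SE 0.08) in Treg-phagocytic cells, all called, which are 3.1-fold, 3.4-fold and 3.9-fold lower levels.

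Uptake added a smaller step for Hmox1 under IL-10. Tconv-phagocytic libraries measured 475, 469, 468 and 493 TPM, and Treg-phagocytic libraries measured 502, 481, 511 and 494. All 8 lay above the 4 non-phagocytic libraries, and the phagocytic groups overlapped. Hmox1 rose by 0.22 (SE 0.02, adjusted p = 0.00192) after Tconv uptake and by 0.28 (SE 0.03, adjusted p = 0.000415) after Treg uptake. Under IFN-γ the 12 libraries lay between 92.5 and 138 TPM, and the uptake changes were 0.08 (SE 0.07) for Tconv and -0.02 (SE 0.09) for Treg cells, neither called. The difference of the Treg effect between cytokines was -0.31 (SE 0.10, adjusted p = 0.0625) and missed the threshold, which it passed without IFN-γ Treg Ax647-2 (-0.36, adjusted p = 0.0243) or Treg BV421-2 (-0.35, adjusted p = 0.0341). Erythroid markers, a possible source of haem, summed to 1.87 to 13.1 TPM in M0 and IL-10 libraries and 8.72 to 31.1 under IFN-γ. Slc4a1, the anion exchanger of red cells, was listed at 0 in every library. The part of these markers in the result was not tested.

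Cp (ENSMUSG00000003617), a copper enzyme that oxidizes exported iron, was near the filter. IFN-γ Treg-phagocytic libraries measured 0.53, 0.15, 0.28 and 0.78 TPM, about 1.1 to 8.6 reads each. IFN-γ non-phagocytic libraries measured 1.83, 3.16, 1.45 and 1.35. The groups did not overlap, and Cp fell by 1.06 (SE 0.25, adjusted p = 0.0399) after Treg uptake. That call was lost in 13 of 21 alternatives, among them the removal of any library but IFN-γ Treg BV421-2 (-0.88 to -1.16, adjusted p 0.0584 to 0.0974). Cp was also lower under IFN-γ than under IL-10 in Treg-phagocytic cells, by -0.72 (SE 0.18, adjusted p = 0.0142), where the IL-10 libraries measured 1.28 to 1.71 TPM. Over 21 alternatives this change ranged from -1.52 to -0.23. The call was lost in 3 of them (adjusted p up to 0.126, limma). They were a variance weight per group and a replicate block by file number, with or without the GC and length correction.

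The ferritin subunits were among the most abundant RNAs, and together they took 8.87% to 12.8% of all TPM. Fth1 (ENSMUSG00000024661), the heavy subunit with ferroxidase activity, was highest by scaled level in IFN-γ Treg-phagocytic macrophages. That rank rests on the scaling, since by deposited TPM the M0 mean was the highest (79760 against 74530). No test compared these 2 groups. The IFN-γ Treg-phagocytic libraries measured 75390, 74921, 73768 and 74042 TPM of Fth1. The IFN-γ Tconv-phagocytic libraries measured 68071, 62284, 63227 and 63789, and the non-phagocytic libraries 65045, 64343, 63782 and 64991. All 4 Treg-phagocytic libraries lay above the other 8 libraries, which overlapped. Fth1 rose by 0.31 (SE 0.05, adjusted p = 0.0076) against Tconv-phagocytic and by 0.25 (SE 0.03, adjusted p = 0.00351) against non-phagocytic cells, or 1.24-fold and 1.19-fold.

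Ftl1 (ENSMUSG00000050708), the light subunit, gave the same picture under IFN-γ. Treg-phagocytic libraries measured 31800, 30858, 32135 and 31424 TPM. Tconv-phagocytic libraries measured 29610, 26521, 27290 and 27641, and non-phagocytic libraries 29290, 28075, 27497 and 28101. All 4 Treg-phagocytic libraries again lay above the other 8. Ftl1 rose by 0.28 (SE 0.05, adjusted p = 0.0117) and by 0.20 (SE 0.03, adjusted p = 0.0133). Within the libraries of a single title dye the Treg against Tconv changes were 0.28 (BV421) and 0.33 (Ax647) for Fth1 and 0.28 and 0.28 for Ftl1, none called. In 2 other settings of the test all 4 of these ferritin calls were lost: without a mean-variance trend the adjusted p-values, Fth1 first and the Tconv-phagocytic comparison before the non-phagocytic one, were 0.0566, 0.0918, 0.0784 and 0.168, and with no filter on low values they were 1, 1, 0.953 and 1 (limma). In all, the calls against Tconv-phagocytic cells were lost in 6 of 27 alternatives for either subunit, and those against non-phagocytic cells in 2 of 22 for Fth1 and 4 of 22 for Ftl1. The Ftl1 call against non-phagocytic cells was also lost without IFN-γ non-phagocytic replicate 2 (adjusted p = 0.0522). The summed macrophage markers were also higher in IFN-γ Treg-phagocytic libraries (21121 to 21632 TPM) than in the other IFN-γ libraries (16824 to 19187), and their part in the result was not tested. The single markers did not all follow the sum. Against non-phagocytic cells Lyz2, Adgre1, Itgam and Cd14 were called higher (0.31, 0.24, 0.28 and 0.32) and Mertk was called lower (-0.44).

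Under IL-10 the ferritin steps were smaller. Fth1 measured 64747, 63356, 62594 and 63996 TPM in Treg-phagocytic libraries, against 58262, 59101, 58560 and 58522 in Tconv-phagocytic libraries and 58750, 57986, 61025 and 60173 in non-phagocytic libraries. The Treg-phagocytic libraries lay above the other 8 IL-10 libraries. Fth1 rose by 0.18 (SE 0.03, adjusted p = 0.00358) against non-phagocytic cells and by 0.12 (SE 0.02, adjusted p = 0.0358) against Tconv-phagocytic cells. Over 22 alternatives the first change ranged from 0.10 to 0.19, and its call was lost in 1, with no filter (adjusted p = 0.902, limma). The second call was lost in 19 of 27 alternatives, among them the removal of any of the 8 libraries (0.11 to 0.13, adjusted p 0.0583 to 0.132). Ftl1 changed by 0.07 (SE 0.02, adjusted p = 0.0901) and 0.06 (SE 0.03, adjusted p = 0.357), neither called. The Treg against Tconv effect was larger under IFN-γ by 0.19 for Fth1 (SE 0.05, adjusted p = 0.0122) and by 0.22 for Ftl1 (SE 0.05, adjusted p = 0.0108), in a difference where 13.3% of all genes were called. Both calls were lost without scaling, where the differences were 0.09 and 0.12, without the variance trend and with no filter, and the Fth1 call also with a variance weight per group. For Ftl1 the Treg effect against non-phagocytic cells also differed, by 0.13 (SE 0.04, adjusted p = 0.0398), a call lost in 17 of 30 alternatives, among them the removal of any of 12 of the 16 libraries (0.11 to 0.13, adjusted p 0.0524 to 0.0905).

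By cytokine, the subunits parted. M0 libraries held 73733, 83150, 79035 and 83123 TPM of Fth1 and 41741, 44616, 44462 and 44801 TPM of Ftl1. Against M0, Ftl1 fell by 0.37 (SE 0.04, adjusted p = 5.45e-05) under IFN-γ and by 0.43 (SE 0.04, adjusted p = 4.01e-05) under IL-10. Fth1 fell by 0.44 (SE 0.05, adjusted p = 0.000278) under IL-10, while its IFN-γ change was -0.03 (SE 0.04, adjusted p = 0.567). Without scaling the latter was -0.30 (adjusted p = 0.00017), and scaled to the mean library it was 0.03. With no filter the 3 ferritin calls against M0 were lost (adjusted p 0.401 to 0.654, limma). The ratio of Fth1 to Ftl1 mean TPM, which no scaling can move, was 1.82 in M0, 1.81 to 1.95 in the IL-10 groups and 2.29 to 2.36 in the IFN-γ groups. Between cytokines Fth1 was higher under IFN-γ in all 3 uptake classes, by 0.40, 0.28 and 0.47 in non-phagocytic, Tconv-phagocytic and Treg-phagocytic cells, all called. Without scaling these changes were smaller, 0.12, 0.13 and 0.23, and still called. With no filter all 3 calls were lost (adjusted p 0.516 to 0.762, limma). Ftl1 was called in Treg-phagocytic cells (0.19, SE 0.03), where it was -0.05 without scaling and 0.0052 (adjusted p = 0.875) with the GC and length correction. In non-phagocytic and Tconv-phagocytic cells the Ftl1 changes were 0.07 (SE 0.03) and -0.02 (SE 0.05), and without scaling they were -0.22 and -0.17, both called. Ftl1-ps1, a copy that can share reads with Ftl1, was at 1.49% to 1.75% of Ftl1.

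**Figure D2:**
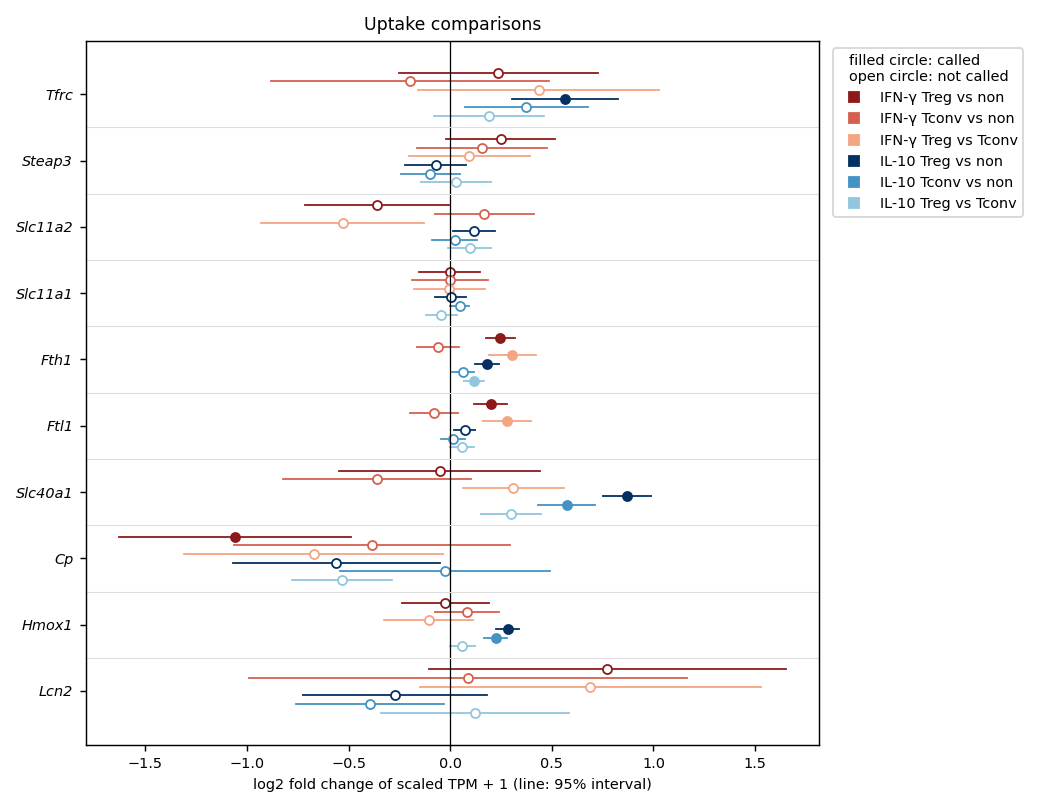
Log2 fold changes of scaled TPM plus 1 (x axis) for the 10 genes (rows) in the 6 uptake comparisons (colours; non, non-phagocytic). Circles are limma estimates, filled where the adjusted p was under 0.05, and lines are 95% intervals. Slc40a1, Hmox1, Fth1 and Tfrc are filled on the higher side after Treg uptake under IL-10, and Fth1 and Ftl1 after Treg uptake under IFN-γ.

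Among the genes that bring iron into the cell and out of the endosome, Steap3 moved most. Steap3 (ENSMUSG00000026389) reduces iron in the endosome after transferrin has released it. M0 libraries measured 24.4, 23.6, 22.2 and 21.6 TPM. IL-10 non-phagocytic libraries measured 15.4, 16.4, 15.6 and 16.7, and IFN-γ non-phagocytic libraries 7.32, 8.31, 7.89 and 9.13. The 3 groups did not overlap. Steap3 fell by 0.50 (SE 0.05, adjusted p = 0.00011) under IL-10 and by 1.14 (SE 0.09, adjusted p = 1.15e-05) under IFN-γ, and IFN-γ against IL-10 gave -0.63 (SE 0.10, adjusted p = 0.000526). These 3 calls were kept in every alternative run. Between cytokines Steap3 was also lower under IFN-γ in Tconv-phagocytic (-0.38, SE 0.11, adjusted p = 0.0206) and Treg-phagocytic cells (-0.31, SE 0.09, adjusted p = 0.0251). The first call was lost without IL-10 Tconv BV421-1 or BV421-2 (adjusted p 0.0664 and 0.0544), and the second without IL-10 Treg Ax647-2, BV421-1 or BV421-2 (adjusted p 0.0671, 0.0523 and 0.0797). With the GC and length correction they were -0.18 (adjusted p = 0.207) and -0.08 (adjusted p = 0.572, limma), and the Treg-phagocytic call, lost in 8 of 22 alternatives, was also lost with median-of-ratios scaling (-0.25) and scaling to the mean library (-0.23). In no uptake comparison was Steap3 called, and its 6 changes lay between -0.10 and 0.25.

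Tfrc (ENSMUSG00000022797), which carries the 4 3′ UTR elements shown above, was low in all groups, with 0.88 to 4.32 TPM per library. Under IL-10 the Treg-phagocytic libraries measured 3.42, 4.23, 4.32 and 3.84 TPM, and the non-phagocytic libraries 3.15, 2.11, 2.51 and 2.16. The groups did not overlap, and Tfrc rose by 0.56 (SE 0.11, adjusted p = 0.016). This call was lost in 3 of 21 alternatives, among them all 28 libraries in 1 model (adjusted p = 0.13, limma). The Tconv-phagocytic libraries lay between, at 2.67, 3.88, 3.9 and 2.96 TPM, and overlapped with both. Their change against non-phagocytic cells was 0.37 (SE 0.13, adjusted p = 0.153, limma). By mean level the 3 IL-10 groups had the same order for Tfrc as for the T cell marker sum, whose part in the result was not tested. Neither cytokine was called against M0 for Tfrc, with -0.21 (SE 0.21) for IFN-γ and -0.13 (SE 0.13) for IL-10. Under IFN-γ its uptake changes ran from -0.20 to 0.44, none called, on about 14.1 to 44.9 reads per library. In Treg-phagocytic cells Tfrc was lower under IFN-γ than under IL-10 (-0.41, SE 0.13, adjusted p = 0.0384), a call lost in 13 of 21 alternatives, among them the removal of IFN-γ Treg Ax647-2 or BV421-1 or of IL-10 Treg Ax647-2, BV421-1 or BV421-2 (adjusted p 0.0559 to 0.103). In Tconv-phagocytic cells the change was -0.65 (SE 0.25, adjusted p = 0.0545), and without IFN-γ Tconv BV421-1 it was -0.88 (adjusted p = 0.00442).

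Slc11a2 (ENSMUSG00000023030) carries ferrous iron across the endosomal membrane. Its mean level under IFN-γ was lower in Treg-phagocytic (57.4 TPM) than in Tconv-phagocytic libraries (88.0 TPM), without passing the test there. Treg-phagocytic libraries measured 51.5, 54.3, 47.2 and 76.3 TPM, and Tconv-phagocytic libraries 75.6, 105, 77.5 and 94.4. The groups overlapped through the library of 76.3 TPM (Treg BV421-2). The change was -0.53 (SE 0.17, adjusted p = 0.0909), and without that library it was -0.69 (adjusted p = 0.0205, limma). Under IL-10 the same change was 0.10 (SE 0.05, adjusted p = 0.406). The difference between cytokines was -0.63 (SE 0.19, adjusted p = 0.0351), a call lost in 16 of 30 alternatives, among them the removal of any of 12 of the 16 libraries (-0.54 to -0.65, adjusted p 0.051 to 0.0755). Without Treg BV421-2 the changes of Treg-phagocytic cells against IFN-γ non-phagocytic and IL-10 Treg-phagocytic cells were called too (-0.52, adjusted p = 0.0151, and -0.40, adjusted p = 0.00336), where all libraries gave -0.36 (adjusted p = 0.217) and -0.24 (adjusted p = 0.235). Against M0, Slc11a2 rose by 0.34 (SE 0.06, adjusted p = 0.00157) in IFN-γ non-phagocytic cells, on deposited levels of 70.2 to 82.3 TPM against 66.2 to 75.8 TPM. That rise rests on the scaling, since without it the change was 0.07 (adjusted p = 0.378, limma). Likewise Slc11a2 was higher under IFN-γ than under IL-10 in non-phagocytic (0.24, SE 0.06, adjusted p = 0.00926) and Tconv-phagocytic cells (0.38, SE 0.10, adjusted p = 0.0104), and without scaling these were -0.04 and 0.24, neither called.

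Slc11a1 (ENSMUSG00000026177), the phagosomal metal transporter linked to resistance against intracellular pathogens, was called in the cytokine comparisons and in none of the uptake comparisons. M0 libraries measured 665 to 706 TPM, with a median of 677. IL-10 non-phagocytic libraries measured 617 to 641 (median 630.2), and IFN-γ non-phagocytic libraries 407 to 470 (median 445). No group overlapped with another. Slc11a1 fell by 0.35 (SE 0.05, adjusted p = 0.000623) under IFN-γ and by 0.13 (SE 0.03, adjusted p = 0.00599) under IL-10. It was lower under IFN-γ than under IL-10 in all 3 uptake classes, by -0.23 to -0.27. With the GC and length correction these 3 changes were -0.11 to -0.14 and not called (adjusted p 0.0651 to 0.102, limma), and in Treg-phagocytic cells the call was also lost when scaled to the mean library (-0.14, adjusted p = 0.0602). The call for IL-10 against M0 was lost with all 28 libraries in 1 model (adjusted p = 0.172). In the 6 uptake comparisons its changes lay between -0.04 and 0.05, none called.

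Lcn2 (ENSMUSG00000026822), which sequesters bacterial siderophores, was at most 4.07 TPM. M0 libraries measured 2.94, 3.7, 3.57 and 3.05 TPM, and IFN-γ non-phagocytic libraries 0.99, 0.9, 2.47 and 0. The deposited levels did not overlap, the scaled levels did (highest 2.68 under IFN-γ, lowest 2.66 in M0), and Lcn2 fell by 1.02 (SE 0.35, adjusted p = 0.0339) on at most 8.2 reads per IFN-γ library, a call lost in 8 of 20 alternatives, among them the removal of any M0 library or of IFN-γ replicate 1 or 2 (adjusted p 0.0567 to 0.0814). Against IL-10 non-phagocytic cells, whose libraries overlapped with the IFN-γ libraries, the change was -0.97 (SE 0.35, adjusted p = 0.0453), lost in 11 of 21, among them the removal of any library but IFN-γ replicate 3 (adjusted p 0.0604 to 0.115). Lcn2 was not called in any uptake comparison. The 13 neutrophil markers, a cell type rich in Lcn2, summed to 96.8 to 111 TPM in IFN-γ non-phagocytic, to 104 to 109 TPM in M0 and to 136 to 149.9 TPM in IL-10 non-phagocytic libraries. All 4 IL-10 sums lay above the IFN-γ sums, but the markers did not move together. Against M0, S100a8 and S100a9 changed by 0.99 and 0.73 in IFN-γ and by -0.44 and -0.50 in IL-10 non-phagocytic cells. For Mmp8, Prtn3 and Csf3r the changes were 0.01, -0.23 and -0.14 under IFN-γ and 1.49, 1.03 and 0.77 under IL-10. The part of the neutrophil markers in the Lcn2 result was not tested.

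**Figure D3:**
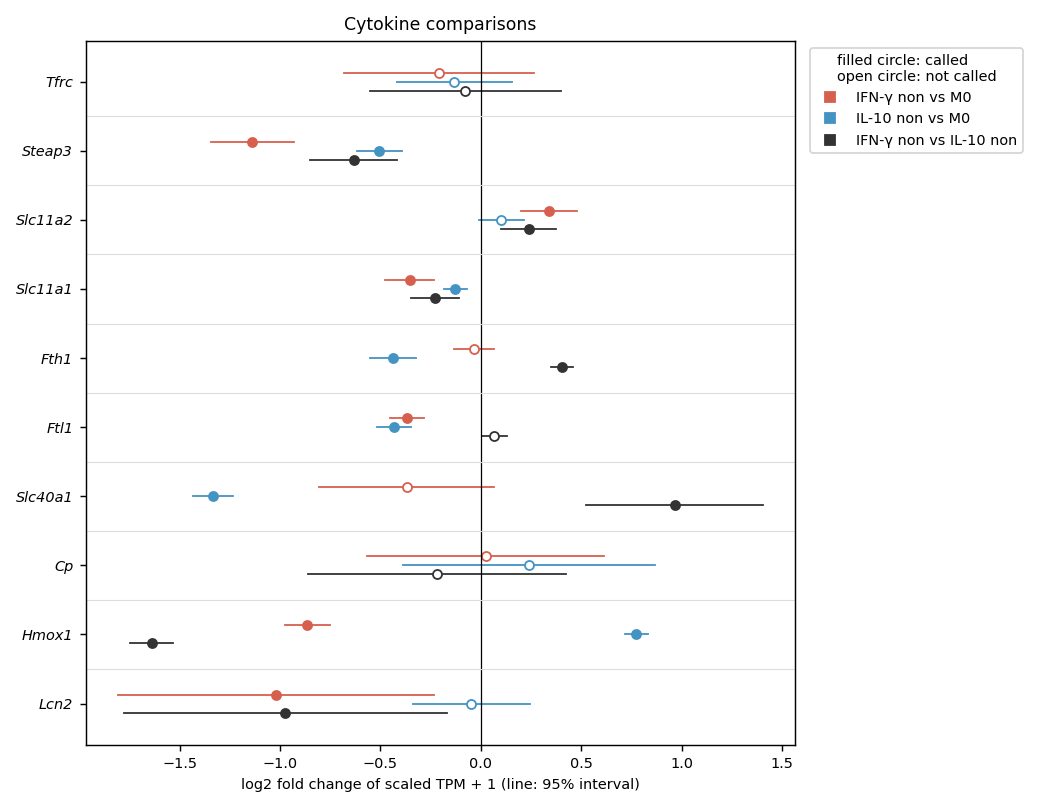
Log2 fold changes of scaled TPM plus 1 (x axis) for the 10 genes (rows) in non-phagocytic IFN-γ or IL-10 macrophages against M0 and against each other (colours). Circles are limma estimates, filled where the adjusted p was under 0.05, and lines are 95% intervals. Hmox1 is filled on opposite sides of 0 for the 2 cytokines against M0, and Steap3 and Slc11a1 are filled on the lower side for both.

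In the order of scaled levels, few neighbouring groups were apart. For Hmox1 the order was IL-10 Treg-phagocytic, IL-10 Tconv-phagocytic, IL-10 non-phagocytic, M0 and then the IFN-γ groups, and only the IL-10 phagocytic pair and the 3 IFN-γ groups overlapped with their neighbours. For Slc40a1, M0 came first and IL-10 non-phagocytic last, and the IFN-γ and IL-10 phagocytic groups between them overlapped except where IL-10 Treg-phagocytic (16.9 to 18.8 scaled TPM) met IFN-γ Tconv-phagocytic (14 to 14.8). For Fth1, IFN-γ Treg-phagocytic (82509 to 86500 scaled TPM) stood above M0, the other IFN-γ groups overlapped with M0, and the 3 IL-10 groups followed without overlap. By deposited TPM the IFN-γ Treg-phagocytic libraries (73768 to 75390) lay within the range of M0 (73733 to 83150). For Lcn2 and Tfrc all neighbouring groups overlapped.

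Over the means of the 7 groups, the genes closest in pattern to a member were found among 9416 genes by the root mean square difference of centred log2 levels. For Fth1 they were Trem2 (0.03), Akr1a1 (0.04) and Blvrb (0.05). For Slc40a1 they were Panx1 (0.15), Lipa (0.18) and Anpep (0.21), and for Hmox1 Ap1b1 (0.12), Pros1 (0.13) and C1rl (0.14). Steap3 was closest to Ndc1 (0.05), Gpnmb (0.06) and Atic (0.06). These are descriptions over 7 points that share libraries.

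The wider pathway was described by 72 genes in 7 lists, of which 52 passed the filter. In IL-10 macrophages, 10 of the 52 rose and 4 fell after Treg uptake, and 7 rose and 1 fell after Tconv uptake, where 11.4% and 6.14% of all genes were called, with list medians of 0.03 and 0.03 beside 0.00 and 0.01 over all genes. Spic, a transcription factor of iron-recycling macrophages, rose by 1.41 (SE 0.13, adjusted p = 0.000401) after Treg and by 0.90 (SE 0.15, adjusted p = 0.012) after Tconv uptake. It measured 0.63 to 1.48 TPM in non-phagocytic, 2.33 to 3.63 in Tconv-phagocytic and 4.01 to 4.68 in Treg-phagocytic libraries. The 3 groups did not overlap. Trf, the plasma iron carrier transferrin, rose by 0.73 (SE 0.04) and 0.75 (SE 0.05), from 205 to 234 TPM in non-phagocytic to 331 to 375 TPM in phagocytic libraries. Ncoa4, the receptor that delivers ferritin to lysosomes, rose by 0.61 (SE 0.05) and 0.42 (SE 0.05). Bach1, a haem-sensing repressor of Hmox1, fell by 0.21 (SE 0.05, adjusted p = 0.0328) after Treg uptake.

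Under IFN-γ the pathway genes that changed with Treg uptake included Bach1, Mcoln1, Fbxl5 and Flvcr1. Against Tconv-phagocytic cells 4 of the 52 rose and 8 fell, against non-phagocytic cells 1 rose and 4 fell (11.7% and 8% of all genes called, the latter count lying near its background), and after Tconv uptake 0 were called, with 1 gene called over all. Bach1 fell by 0.70 (SE 0.11, adjusted p = 0.00567) against Tconv-phagocytic and by 0.74 (SE 0.09, adjusted p = 0.00338) against non-phagocytic cells. It measured 27.2 to 33.9 TPM in Treg-phagocytic, 44.5 to 55.8 in Tconv-phagocytic and 50.2 to 51.3 in non-phagocytic libraries. Mcoln1, a lysosomal channel that releases iron, fell by 1.00 (SE 0.18) and 0.92 (SE 0.16). Fbxl5, the iron-sensing ligase subunit that degrades iron regulatory proteins, fell by 0.42 (SE 0.09) and 0.50 (SE 0.09), and Flvcr1, a haem exporter, by 0.60 (SE 0.11) and 0.54 (SE 0.12).

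By cytokine, 16 of the 52 rose and 16 fell in IFN-γ non-phagocytic cells against M0, and 7 rose and 14 fell in IL-10 non-phagocytic cells. Over all genes 26.4% rose and 26.7% fell under IFN-γ, and 13.8% and 12.9% under IL-10, so the IFN-γ counts and the IL-10 count of higher genes lie near the background. Alas1, the first enzyme of haem synthesis, fell in both, by 1.12 (SE 0.09) under IFN-γ and 0.47 (SE 0.06) under IL-10. Aco1, an iron regulatory protein that doubles as cytosolic aconitase, fell by 1.13 (SE 0.12) and 0.20 (SE 0.05). Bach1 rose in both, by 0.40 (SE 0.06) under IFN-γ and by 0.60 (SE 0.06) under IL-10, while Hmox1 fell under IFN-γ and rose under IL-10. Fbxl5 rose by 0.43 (SE 0.07) under IFN-γ and by 0.76 (SE 0.05) under IL-10. Hfe, a partner of the transferrin receptors, fell by 0.57 (SE 0.10) under IFN-γ and rose by 0.71 (SE 0.07) under IL-10. Slc39a14, a transporter of iron not bound to transferrin, likewise fell by 0.76 (SE 0.17) and rose by 0.81 (SE 0.09). Hp, the haemoglobin binder haptoglobin, rose by 1.92 (SE 0.15) under IL-10, from 0.85 to 1.58 TPM in M0 to 6.08 to 8.63 TPM. Lrp1, the receptor for haem carried by haemopexin, fell by 1.10 (SE 0.07) under IFN-γ, and Pcbp2, an iron chaperone, rose by 0.89 (SE 0.04). Hamp, Heph, Cd163 and Hpx, the hepcidin, hephaestin, haemoglobin receptor and haemopexin genes, were among the 20 that did not pass the filter.

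**Figure D4:**
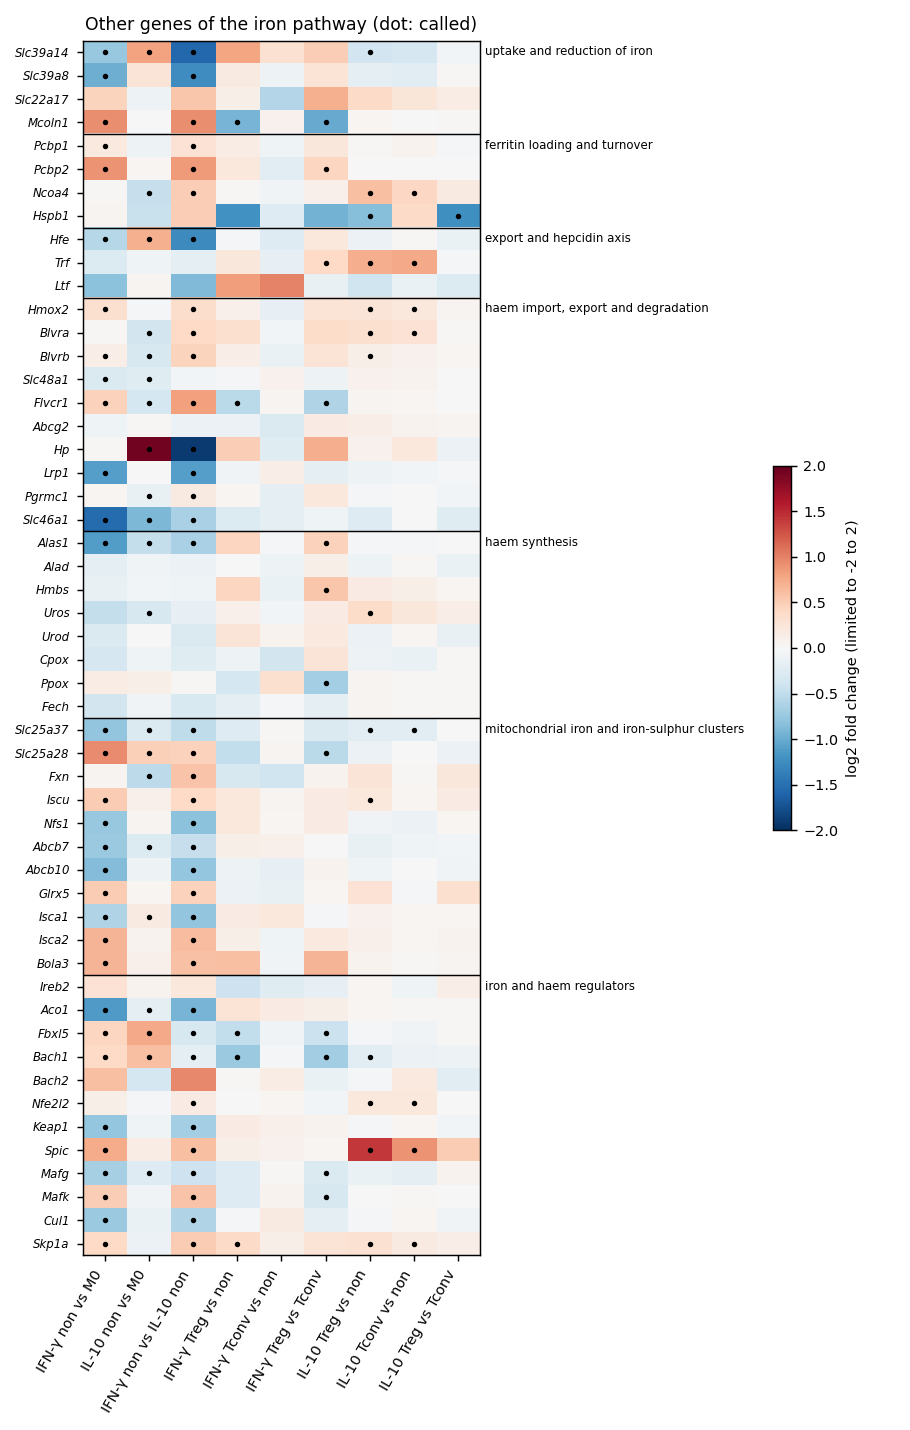
Log2 fold changes of scaled TPM plus 1 (colour, limited to -2 to 2) of the 52 other pathway genes that passed the filter (rows, by list) in 9 comparisons (columns; non, non-phagocytic). A dot marks an adjusted p under 0.05. The left 3 columns hold most dots, and Spic, Trf and Ncoa4 carry dots on the higher side in both IL-10 uptake columns.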

How the data were processed

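The authors deposited 1 table per library of TPM with 2 decimals for Ensembl gene IDs; STAR, RSEM and mm10 are named in the submitters' processing notes, and the annotation and versions are not given in the sources used here. Total RNA was extracted with RNAiso PLUS and libraries were made from polyA RNA with a strand-specific kit, per the labels. Gene names, coordinates and sequences came from GENCODE vM21 (GRCm38), which matched 55227 IDs and left 260 without a symbol. No 2 of the 28 libraries held identical values.

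TPM is not a count, so no count test was used. Each library's TPM was divided by its scaling factor, 1 was added and log2 was taken, and limma 3.58.1 (R 4.3.3) was fitted to these values with a mean-variance trend. A gene entered if 4 or more libraries held 1 TPM or more (13631 genes), only the groups compared entered a fit, and p-values were Benjamini-Hochberg adjusted over all genes tested within each of 11 comparisons of 2 groups and 3 differences between comparisons. A fold change on this scale understates the change of low genes. Scaling used a trimmed mean of log2 ratios to a reference library (30% of ratios and 5% of levels trimmed). It was the last of 3 forms tried after results for these genes had been seen, taken because its factors matched an earlier processing of these data and left the median gene nearest 0; the other 2 forms are among the alternatives. Relative to IL-10 non-phagocytic libraries it shifted IFN-γ non-phagocytic libraries by -0.29 on the log2 scale. Scripts were tested on simulated data.

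Depth was read from the size of 1 read in 14527 genes of 500 to 2000 nt with a single transcript, after subtracting 225 nt from each length. Of their low values, up to 4 reads, 88.9% to 92.5% lay within 0.15 of a whole read, where 30% would by chance. The rule that picks the step was changed after 1 library came out at a fraction of a step. TPM keeps no depth by itself, so read numbers are approximate and no counting intervals are given.

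The 10 genes and all lists were chosen with earlier results of these data known. From each pathway list the called genes with the widest changes, at most 3 in each direction, could be named. Alternatives were other pseudocounts, filters and scalings, models of all 28 libraries, replicate blocks, dye terms and each library left out. Added after seeing the data were the other scaling forms, a fit without the variance trend and a correction for GC and length.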

Additional observations from a re-analysis of the deposited data

Results flagged for a closer look

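In 3 of 70 sets of 4 libraries (10 genes in 7 groups) the lowest or highest library stood apart from the other 3 by Dixon's test, where chance gives about 5% of sets. Ftl1 in M0 replicate 1 was the lowest at 41741 TPM, Cp in IL-10 non-phagocytic replicate 4 was the highest at 5.39 TPM, and Lcn2 in IL-10 Treg Ax647-1 was the highest at 3.86 TPM.

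In 6 cases the effect of uptake differed between IFN-γ and IL-10 by the limma test of the difference itself. Treg against Tconv uptake differed for Slc11a2 (-0.63, adjusted p = 0.0351), Fth1 (0.19, adjusted p = 0.0122) and Ftl1 (0.22, adjusted p = 0.0108). Treg uptake against none differed for Slc40a1 (-0.92, adjusted p = 0.0159) and Ftl1 (0.13, adjusted p = 0.0398), and Tconv uptake against none for Slc40a1 (-0.93, adjusted p = 0.0395). The IFN-γ libraries were also the shallower and more variable ones, and the part of this in the differences was not tested.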

How the results depend on the processing

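Of 49 calls of an iron handling gene in a comparison, 15 held in every alternative run, and 38 held without any 1 library. The number of the 10 genes called moved by more than 1.5 times as follows, the cause not being tested. For IFN-γ Treg against Tconv uptake it was 2, and became 0 with no filter, without the variance trend and in BV421 or Ax647 libraries alone, and 4 with all 28 libraries in 1 model. For IFN-γ Treg against no uptake it was 3, and became 0 with no filter, 1 without the trend and 5 with all 28 libraries. For IL-10 Treg against Tconv uptake it was 1, and became 0 with a pseudocount of 0.1, no filter, all 28 libraries, either dye as a term or alone, and 2 with variance weights or the GC and length correction. For IL-10 Tconv against no uptake it was 2, and 1 with all 28 libraries. Between cytokines in Treg-phagocytic cells it was 7, and became 4 with no filter or scaling to the mean library, and 3 with the GC and length correction. For the differences between cytokines it went from 3 to 0 (no filter, no trend) and 1 (no scaling) for Treg against Tconv, from 2 to 1 (no filter, no trend) for Treg against none, and from 1 to 0 (pseudocount 5, no filter, no scaling, no trend, GC and length) for Tconv against none. Whether replicate numbers pair the libraries was not settled. In no comparison was every same-number correlation over 0.1. For IFN-γ Treg against Tconv, however, each of 4 Treg libraries correlated best with its own file number (0.027 to 0.05, against a mean of -0.012 for other numbers). With a replicate block by file number the counts became 0 (IFN-γ Treg against Tconv; 1 by title dye and number), 1 (IFN-γ Treg against none), 0 (IL-10 Treg against Tconv, by either numbering and with GC and length), 4 (cytokines in Treg-phagocytic cells; 3 with GC and length), 1 (difference for Treg against none) and 0 (difference for Tconv against none, also with GC and length). With that block the adjusted p was 0.0549 for Fth1 and 0.0611 for Ftl1 in IFN-γ Treg against Tconv (0.0552 and 0.0545 by title dye and number), 0.0782 for Ftl1 in IFN-γ Treg against none, 0.0758 for Tfrc in IL-10 Treg against none (0.083 with GC and length) and 0.0866 for Steap3 between cytokines in Treg-phagocytic cells (0.662 with GC and length). Without 1 library the counts ranged over 2 to 3, 1 to 4 and 0 to 0 for IFN-γ Treg against Tconv, Treg against none and Tconv against none, 0 to 1, 4 to 4 and 2 to 2 for the same under IL-10, 6 to 8, 5 to 8 and 4 to 6 between cytokines in non-phagocytic, Treg-phagocytic and Tconv-phagocytic cells, 5 to 6 and 6 to 6 for IFN-γ and IL-10 against M0, and 2 to 3, 1 to 3 and 0 to 2 for the differences. Directions turned for Ftl1 between cytokines in non-phagocytic cells (-0.22 with no scaling, -0.022 with scaling over all genes above 0, and -0.13 with GC and length, with or without the block), in Treg-phagocytic cells (-0.048 with no scaling) and in Tconv-phagocytic cells (0.00965 with median-of-ratios scaling, 0.043 scaled to the mean library, and -0.0672 to 0.00129 without 1 library, above 0 without IFN-γ Tconv BV421-2). They also turned for Slc11a2 between cytokines in non-phagocytic cells (-0.044, no scaling), Fth1 in IFN-γ against M0 (0.026, scaled to the mean library) and Fth1 in the difference for Tconv against none (0.016, no scaling). Over all genes, calls went from 1594 to 4201 (IFN-γ Treg against Tconv), 1090 to 3611 (Treg against none), 1 to 123 (Tconv against none), 189 to 106, 1550 to 623 and 837 to 245 (the same under IL-10) and 3632 to 1812 (IL-10 against M0) with all 28 libraries in 1 model. Without the trend they were 1020, 682 and 492 for IFN-γ Treg against Tconv, IFN-γ Treg against none and IL-10 Tconv against none. The share of higher genes among those called went, without scaling, from 33.1% to 15.1% (IFN-γ Treg against Tconv), 60.8% to 26.9% and 71.4% to 25.4% (IL-10 Treg and Tconv against none), 49.6% to 29.9% (cytokines in non-phagocytic cells) and 49.7% to 31.5% (IFN-γ against M0). Depth limits Cp, Lcn2 and Tfrc most under IFN-γ, where they rest on at most 43.6, 8.2 and 44.9 reads.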
